A study of Homo sapiens with 11 samples.

Results

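Small RNA sequencing was used to follow microRNAs (miRNAs) in SH-SY5Y cells, a human neuroblastoma line subcloned from SK-N-SH, after oxidative stress. All cells described here were differentiated towards a neuron-like state with 10 µM all-trans retinoic acid (ATRA) for 7 days. In the pre-treatment experiment, cells received 10 µM hydrogen peroxide (H2O2) for 72 h before ATRA (3 libraries, called pre-treated here) or no H2O2 (2 libraries, the pre-treatment controls). In the co-treatment experiment, H2O2 was given during the 7 days of ATRA, and the cells that received ATRA without H2O2 gave 3 further control libraries, the co-treatment controls. The comparison described here set the 3 pre-treated libraries against the 3 co-treatment controls, which is 6 of the 11 libraries of the series, without the 2 pre-treatment controls in the fit. The tables of both experiments were joined by miRNA name, and 2576 names stood in both. The question was which miRNAs called in pre-treated cells against their own 2 controls kept their direction when another set of ATRA-only cells took the controls' place. H2O2 and experiment cannot be told apart in this comparison, because every pre-treated library came from one experiment and every control from the other. The cells are of 1 tumour line in culture, and although the study describes biological triplicates, the labels do not tie each library to a culture, so the p-values measure the spread between these libraries, which may in part be technical.

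A miRNA is cut from a hairpin precursor by Drosha and Dicer and loaded into an Argonaute protein, where bases 2 to 8, the seed, select the messenger RNAs to be repressed. A hairpin can give a mature miRNA from either arm (5p or 3p), and hairpins that lie in one transcript, such as those of an imprinted non-coding RNA, can be made together. ATRA leads neuroblastoma cells to leave the cell cycle and extend neurites, and H2O2 is a reactive oxygen species that oxidises lipids, proteins and DNA.

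The mature sequences of miRNAs on which the results turned are given from the RefSeq table of GRCh38.p14, 5′ to 3′, with the seed in capitals. The first set holds miRNAs that were higher in pre-treated cells than in both sets of controls.
hsa-miR-1287-5p: uGCUGGAUcagugguucgaguc
hsa-miR-138-5p: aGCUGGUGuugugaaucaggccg
hsa-miR-335-5p: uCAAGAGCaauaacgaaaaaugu
hsa-miR-21-5p: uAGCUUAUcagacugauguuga
hsa-miR-28-3p: cACUAGAUugugagcuccugga
hsa-miR-122-5p: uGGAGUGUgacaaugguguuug
hsa-miR-339-3p: uGAGCGCCucgacgacagagccg

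The second set holds miRNAs that were lower in pre-treated cells than in both sets of controls.
hsa-miR-675-5p: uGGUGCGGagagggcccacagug
hsa-miR-675-3p: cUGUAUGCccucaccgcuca
hsa-miR-129-1-3p: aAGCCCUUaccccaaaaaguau
hsa-miR-129-2-3p: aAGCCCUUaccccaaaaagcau
hsa-miR-877-5p: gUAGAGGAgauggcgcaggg
hsa-miR-323a-3p: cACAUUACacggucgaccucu
hsa-miR-382-5p: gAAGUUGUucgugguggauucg
hsa-miR-409-3p: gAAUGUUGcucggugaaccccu

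The third set shares the seed AGCAGCA and was called higher against the pre-treatment controls only, as described below for the network hubs.
hsa-miR-15a-5p: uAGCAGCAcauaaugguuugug
hsa-miR-16-5p: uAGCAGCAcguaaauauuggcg
hsa-miR-195-5p: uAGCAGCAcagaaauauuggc
hsa-miR-497-5p: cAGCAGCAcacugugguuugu

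Libraries held between 5787956 and 8424667 counts in the co-treatment controls, between 7250098 and 8396746 in the pre-treated cells, and 6935876 and 7287066 in the pre-treatment controls. At these depths 3 counts equal 0.356 to 0.518 normalised counts (CPM, counts scaled to library size). Across 894 miRNAs, log2 CPM correlated at r = 0.993 to 0.995 among the pre-treated libraries and at 0.984 to 0.991 among the co-treatment controls, but at only 0.950 between the pre-treatment controls, which is why both were left out of the fit. Between the groups compared, r was 0.966 to 0.986. Neuronal miRNAs were present at a summed 33628 to 39048 CPM in the pre-treated libraries and 35260 to 38251 CPM in the co-treatment controls, mostly from miR-137. The neuron-specific miR-124-3p did not exceed 0.946 CPM (7 counts) in any of the 8 libraries. Levels below are CPM after TMM scaling (edgeR's trimmed mean of M values) of these 8 libraries together.

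Of 763 miRNAs tested in the pre-treated libraries against the co-treatment controls, 241 (31.6%) were called by the edgeR exact test (Benjamini-Hochberg FDR under 0.05 and absolute log2 fold change above 0.6). Among them 106 (13.9%) were higher and 135 (17.7%) were lower, and the median log2 fold change over all tested was −0.01. The edgeR quasi-likelihood test called 215 (28.2%), each of them among the 241. For 228 of the 241 calls the 3 pre-treated libraries did not overlap the 3 controls, where 45.9% of all tested miRNAs had no overlap. The calls were made on these same libraries, which favours such a separation, so it is not further evidence. When one library was left out at a time, the number of calls reached 324 without co-treatment control 2. Mature sequences of the higher calls had a median GC content of 59.1%, those of the lower calls 43.5% and all tested ones 50%. With each library's GC trend as an offset, 193 of 679 miRNAs were called, against 195 for the same miRNAs without it, and the medians were 50.0% and 48.9%. The offset takes the GC trend out of the values, so the method itself brings these medians together.

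The same test between the ATRA-only groups, neither of which received H2O2, gave a measure of the difference between the experiments. It called 126 of 846 miRNAs (14.9%), 78 higher (9.22%) and 48 lower (5.67%) in the pre-treatment controls, with a median log2 fold change of 0.01. The quasi-likelihood test called 0 of them, with 250 at an unadjusted p under 0.05 (258 by the exact test), and DESeq2 called 134. The count fell to 1 without co-treatment control 1, 64 without control 2 and 4 without control 3. The 2 pre-treatment controls were not alike: control 1 correlated with the co-treatment controls at r = 0.92 to 0.95 and control 2 at 0.96 to 0.97. How much of the difference came from control 1 was not tested.

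The pre-treated libraries against their own 2 controls gave 133 calls among 868 miRNAs tested (15.3%), 47 higher (5.41%) and 86 lower (9.91%), of which the quasi-likelihood test kept 17 (1.96% of those tested). Of these 133, 115 were also tested against the co-treatment controls. The direction was the same for 78 (67.8%), beside 57.6% of all 753 miRNAs tested in both comparisons and 55.8% of the 638 that were not called against the pre-treatment controls. For the 46 rises the share was 73.9%, beside 58.1% of all miRNAs with a value above 0 against the pre-treatment controls, and for the 69 falls 63.8%, beside 57.2%. Both comparisons hold the same 3 pre-treated libraries, so a shared direction is not independent evidence. The median log2 fold change of the 46 rises was 1.39 against the pre-treatment controls and 0.44 against the co-treatment controls, and that of the 69 falls was −1.71 and −0.18.

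Called in the same direction against both sets of controls were 41 miRNAs, 17 higher (37.0% of the tested rises) and 24 lower (34.8% of the tested falls), where 13.9% and 17.7% of all tested miRNAs were called higher and lower against the co-treatment controls. A further 37 had the same direction without a call, 30 had the opposite direction without a call and 7 were called in the opposite direction. In 39 of the 41, all 3 pre-treated libraries lay beyond all 5 controls, as they did for 112 of the 763 tested miRNAs (14.7%). The exceptions were miR-1248 and let-7d-3p. The 41 were picked by their calls against both sets of controls in these same libraries. That selection favours such a separation, which is therefore not further evidence. With all 5 ATRA-only libraries as one control group, the exact test called 30 miRNAs in all, and 22 of the 41 were among them. Of the 16 quasi-likelihood calls that were tested, 13 kept their direction, 8 were called the same way and 1, miR-760, was called in the opposite way. The 8 were miR-21-5p, miR-335-5p, miR-451a, miR-323b-3p, miR-483-5p, miR-629-3p, miR-675-3p and miR-877-5p. The rest of the 41 were called against the pre-treatment controls by the exact test but not by the quasi-likelihood test. Leaving out a pre-treated library lowered the number kept from 41 to between 4 and 8, because the exact test against the 2 pre-treatment controls then called 9 to 16 miRNAs in place of 133. Without pre-treatment control 1 or 2, 285 and 449 miRNAs were called there, and 109 and 67 were kept, but the control arm then held 1 library, whose spread was assumed to equal that of the pre-treated libraries.

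**Figure D1:**
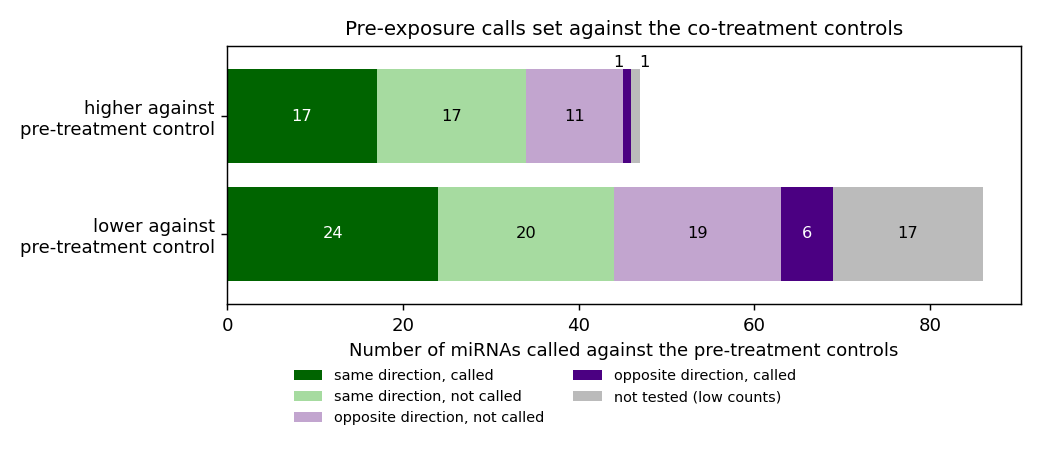
Number of miRNAs called in pre-treated cells against the pre-treatment controls (x axis), split by what was found against the co-treatment controls. The upper bar holds the 47 rises and the lower bar the 86 falls, and 17 and 24 of them were called in the same direction.

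**Figure D2:**
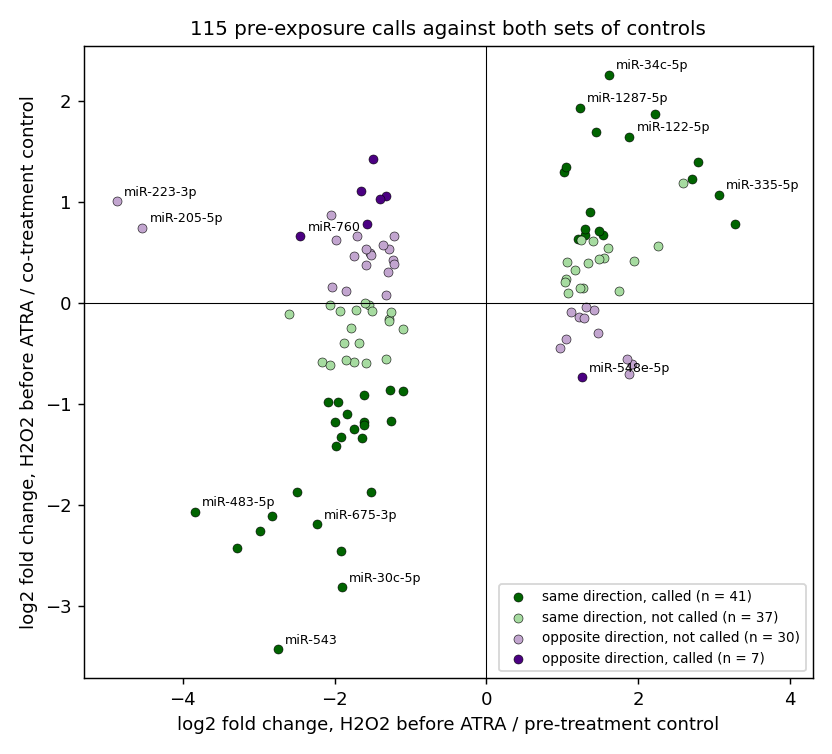
Log2 fold change of the pre-treated libraries against the pre-treatment controls (x axis) and against the co-treatment controls (y axis) for the 115 calls tested in both, 1 point per miRNA, coloured by outcome. The 41 dark green points lie at the upper right and lower left of the crossed zero lines, and the 7 dark purple points at the upper left and lower right.

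Among the kept rises, the largest change against the co-treatment controls was in hsa-miR-34c-5p, which is transcribed under p53 and lies in an exon of MIR34BHG (GRCh37 chromosome 11, 111384164 to 111384240). Its level was 18.0, 17.7 and 19.7 CPM in the pre-treated libraries, 5.39, 3.59 and 2.75 CPM in the co-treatment controls, and 7.29 and 5.65 CPM in the pre-treatment controls. Every control lay well below the lowest pre-treated value. The rise was 4.78-fold (log2 fold change 2.26 ± 0.28 SE, exact test FDR = 2.50e-11) and 3.07-fold against the pre-treatment controls (FDR = 0.00812). In bulk RNA, more cells of one type and more of the miRNA per cell cannot be told apart, here and below.

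hsa-miR-1287-5p, from an exon of PYROXD2 (chromosome 10, 100154975 to 100155064), stood at 63.9, 56.9 and 53.9 CPM after pre-treatment. It stood at 13.9, 19.9 and 12.1 CPM in the co-treatment controls and at 27.3 and 25.9 CPM in the pre-treatment controls. Both control groups lay below every pre-treated library, with the co-treatment controls lowest. The log2 fold change was 1.93 ± 0.24 (exact test FDR = 1.21e-11) and, against the pre-treatment controls, 1.23 ± 0.30 (FDR = 0.0291).

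hsa-miR-138-5p is enriched in brain and limits the growth of dendritic spines. It can come from 2 hairpins (MIR138-1 on chromosome 3 and MIR138-2 on chromosome 16), between which its reads cannot be assigned. Its level was 806, 649 and 661 CPM after pre-treatment, 327, 377 and 165 CPM in the co-treatment controls, and 369.9 and 369 CPM in the pre-treatment controls. Co-treatment control 3 was the lowest, and no control overlapped the pre-treated libraries. The rise was 2.45-fold (log2 fold change 1.29 ± 0.27, exact test FDR = 9.96e-05), and the 2 control groups differed by a log2 fold change of 0.25 (FDR = 0.770).

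For hsa-miR-335-5p, which lies in an intron of the imprinted gene MEST (chromosome 7, 130135952 to 130136045), the choice of controls mattered to the size of the rise. It measured 201, 232 and 177 CPM after pre-treatment, 97.2, 102.2 and 93.0 CPM in the co-treatment controls, and 36.4 and 16.5 CPM in the pre-treatment controls. The 3 groups did not overlap. The rise was 8.37-fold against the pre-treatment controls (log2 fold change 3.06 ± 0.42, exact test FDR = 9.58e-07) and 2.099-fold against the co-treatment controls (1.07 ± 0.20, FDR = 2.11e-05). The ATRA-only groups themselves differed by −1.98 (exact test FDR = 0.0115, quasi-likelihood test FDR = 0.0546).

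Both arms of the miR-21 hairpin, which is abundant in many tumours and lies in an exon of VMP1 (chromosome 17, 57918627 to 57918698), were kept. hsa-miR-21-5p was at 18547, 17734 and 17838 CPM after pre-treatment, 11980.0, 11412 and 10832 CPM in the co-treatment controls, and 5999 and 7288 CPM in the pre-treatment controls. The groups did not overlap, yet the rise of 1.59-fold (log2 fold change 0.67 ± 0.14, exact test FDR = 0.00435) lay close to the size threshold, was 0.58 when library size replaced TMM, and was not called without pre-treated library 1 or 2 (0.65 and 0.68). hsa-miR-21-3p rose 1.86-fold (0.89 ± 0.21, FDR = 0.000754), with 62.3 to 83.0 CPM after pre-treatment and 30.0 to 42.6 CPM over the 5 controls.

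hsa-miR-28-3p, from an intron of LPP (chromosome 3, 188406569 to 188406654), was at 29.5, 25.7 and 20.9 CPM after pre-treatment. In the co-treatment controls it was at 7.94, 7.06 and 8.63 CPM, and in the pre-treatment controls at 9.11 and 10.7 CPM. All 5 controls were alike, so the rise was 3.23-fold against one set (log2 fold change 1.69 ± 0.23, exact test FDR = 8.42e-09) and 2.73-fold against the other (FDR = 0.0197). hsa-miR-339-3p, from an intron of C7orf50 (chromosome 7, 1062569 to 1062662), was likewise at 471, 440.0 and 448 CPM after pre-treatment and between 129.7 and 268 CPM in the 5 controls (log2 fold change 1.34 ± 0.25, FDR = 1.13e-05).

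hsa-miR-122-5p, the most abundant miRNA of liver, was at 550.2, 630.2 and 784 CPM after pre-treatment, 229, 136 and 269 CPM in the co-treatment controls, and 105 and 269 CPM in the pre-treatment controls. The pre-treated libraries lay above all 5 controls. The 2 sets of controls overlapped, and the 2 pre-treatment controls were far apart. The log2 fold change was 1.64 ± 0.27 against the co-treatment controls (exact test FDR = 3.94e-07) and 1.88 ± 0.48 against the pre-treatment controls (FDR = 0.0116). Of the liver and muscle markers, 4 of 5 were named in the tables and 2 were tested, of which 1, miR-122-5p, was called higher (13.9% of all miRNAs). The muscle miRNA listed as hsa-miR-1, called higher against the pre-treatment controls (1.74 ± 0.48), had a log2 fold change of 0.12 ± 0.34 (exact test FDR = 0.882) against the co-treatment controls. The muscle miRNA miR-133a-3p was at 0 in all 8 libraries, and miR-206 was at 2.76 to 3.65 CPM after pre-treatment and 2.87 to 3.00 CPM in the co-treatment controls.

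The red cell miRNAs hsa-miR-451a and hsa-miR-144-5p, from neighbouring hairpins, were kept at low levels. hsa-miR-451a was at 5.16, 6.63 and 6.47 CPM after pre-treatment, 2.55, 1.56 and 2.88 CPM in the co-treatment controls, and 0.911 and 0.942 CPM in the pre-treatment controls (log2 fold change 1.39 ± 0.34 against the co-treatment controls, exact test FDR = 0.00118). hsa-miR-144-5p was at 3.36 to 7.26 CPM after pre-treatment and at 1.63 to 3.30 CPM in the co-treatment controls (1.22 ± 0.40, FDR = 0.0186). Over the list of 4 red cell miRNAs, the summed level was 10.4 to 14.2 CPM after pre-treatment, 4.19 to 6.89 CPM in the co-treatment controls and 2.28 to 3.92 CPM in the pre-treatment controls. Both members tested against the co-treatment controls were called higher, beside 13.9% of all miRNAs. The part of red cell or serum RNA in these rises was not tested.

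The other kept rises were miR-584-5p, miR-1248, miR-6505-5p, miR-488-5p, miR-2682-3p and miR-192-5p. Their log2 fold changes against the co-treatment controls ran from 0.63 for miR-192-5p to 1.86 for miR-584-5p. Over 17 alternative settings of that comparison, miR-6505-5p was called the same way in 4, and miR-1248 and miR-2682-3p in 7 each. For miR-192-5p it was 8 settings and for miR-488-5p 10, whereas miR-584-5p was called in all 16 in which it was tested. hsa-miR-1248, whose hairpin overlaps a small nucleolar RNA, was at 318, 630.2 and 723 CPM after pre-treatment, and the lowest of these fell within the 307, 312 and 367 CPM of the co-treatment controls.

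**Figure D3:**
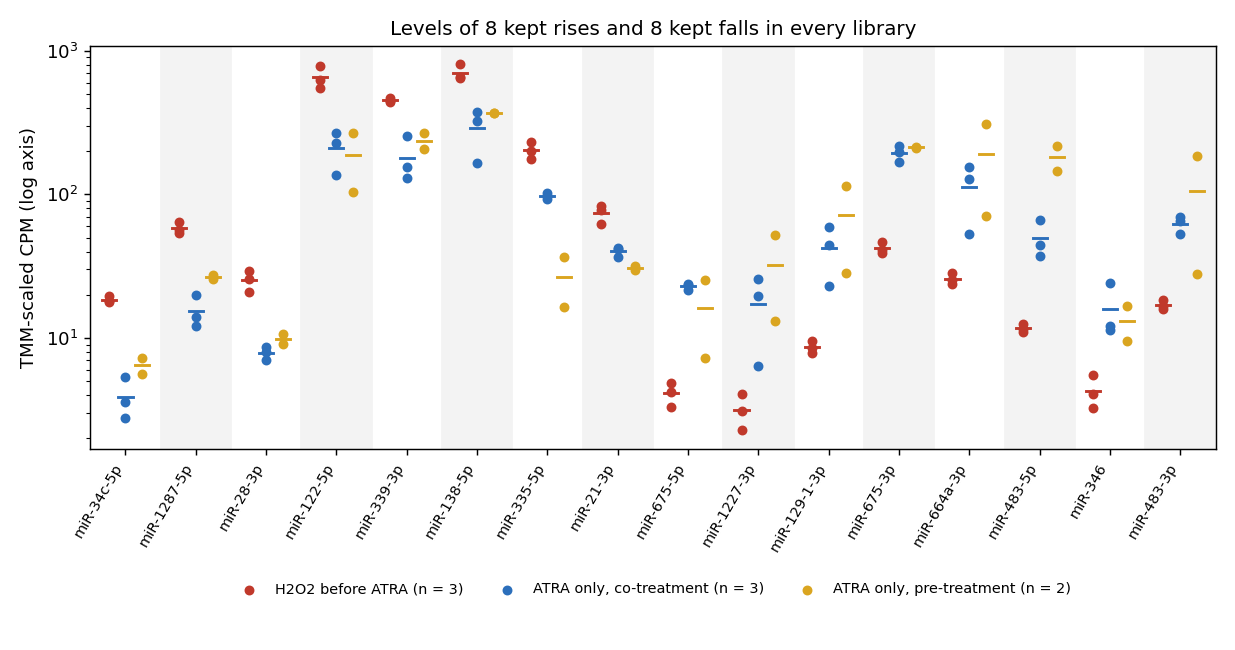
TMM-scaled CPM on a log axis for the 8 largest kept rises (left) and the 8 largest kept falls (right) with a mean of at least 10 CPM. Points are libraries and bars are group means for pre-treated cells (n = 3), co-treatment controls (n = 3) and pre-treatment controls (n = 2). In each of the 16 miRNAs the 3 pre-treated points lie beyond all 5 controls, which their selection by calls against both sets favours.

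Of the 24 kept falls, 4 came from the imprinted H19 and IGF2 locus on chromosome 11, and these were all 4 of its miRNAs that were tested. miR-675 is processed from H19, a maternally expressed non-coding RNA (chromosome 11, 2016396 to 2025782), and miR-483 lies in an intron of IGF2, a paternally expressed growth factor gene (2155364 to 2155439). hsa-miR-675-3p was at 40.9, 46.9 and 38.8 CPM after pre-treatment, 219, 167 and 198 CPM in the co-treatment controls, and 214 and 211 CPM in the pre-treatment controls. The 5 controls lay close together, and no other kept fall had ATRA-only groups this near to each other except miR-145-5p. Its fall was 4.58-fold against the co-treatment controls (log2 fold change −2.20 ± 0.22, exact test FDR = 1.56e-17) and 4.69-fold against the pre-treatment controls (−2.23 ± 0.27, FDR = 1.08e-06), with −0.01 between the control groups.

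hsa-miR-675-5p was at 4.20, 4.87 and 3.30 CPM after pre-treatment and at 23.5, 21.5 and 23.8 CPM in the co-treatment controls. The pre-treatment controls disagreed, at 7.29 and 25.3 CPM. Its log2 fold change against the co-treatment controls was −2.46 ± 0.25 (exact test FDR = 3.81e-16), and against the pre-treatment controls −1.91 ± 0.57 (FDR = 0.0259).

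hsa-miR-483-5p was at 11.6, 12.4 and 10.96 CPM after pre-treatment, 37.3, 66.6 and 44.3 CPM in the co-treatment controls, and 218 and 145 CPM in the pre-treatment controls. Here the 3 groups were apart, and the fall was 4.20-fold against the co-treatment controls (log2 fold change −2.07 ± 0.26, exact test FDR = 2.61e-11) where it was 14.4-fold against the pre-treatment controls (−3.84 ± 0.31, FDR = 2.28e-16). hsa-miR-483-3p was at 18.3, 16.6 and 15.8 CPM after pre-treatment and at 65.5, 69.4 and 52.8 CPM in the co-treatment controls (−1.87 ± 0.21, FDR = 8.92e-13). Its pre-treatment controls were again far apart, at 184 and 27.8 CPM.

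A further 7 of the 24 kept falls (29.2%) lay in the imprinted DLK1-DIO3 region, whose tested hairpins lay between 101349316 and 101532024 of chromosome 14 in GRCh37 and which held 5.11% of all tested miRNAs by annotated position. They were miR-134-5p, miR-323a-3p, miR-323b-3p, miR-369-5p, miR-382-5p, miR-409-3p and miR-543, all cut from maternally expressed transcripts. hsa-miR-323a-3p was at 26.3, 38.8 and 35.2 CPM after pre-treatment, 67.0, 84.3 and 77.7 CPM in the co-treatment controls, and 126 and 94.2 CPM in the pre-treatment controls (log2 fold change −1.18 ± 0.23 against the co-treatment controls, exact test FDR = 2.11e-05). hsa-miR-409-3p was at 19.8, 29.1 and 26.5 CPM after pre-treatment and at 52.7, 59.7 and 78.3 CPM in the co-treatment controls (−1.33 ± 0.24, FDR = 7.64e-06). hsa-miR-382-5p fell 2.38-fold (−1.25 ± 0.22, FDR = 3.88e-06), from 79.1 to 99.0 CPM in the co-treatment controls to 31.4 to 41.6 CPM. hsa-miR-134-5p, which acts on dendritic spine size, fell 1.97-fold (−0.98 ± 0.27, FDR = 0.00550). hsa-miR-543 was near the floor of detection, with 3, 1 and 0 counts after pre-treatment and 21, 8 and 16 counts in the co-treatment controls.

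The whole region went further than its kept members. Of its 39 miRNAs tested against the co-treatment controls, 24 were called lower and 2 higher, beside 17.7% and 13.9% of all miRNAs. Their median log2 fold change was −1.19 beside −0.01 for all miRNAs, and 34 of the 39 had a value below 0. Against the pre-treatment controls, 8 of 37 were called lower and 0 higher, beside 9.91% and 5.41% of all miRNAs. The median there was −0.56 beside −0.19 for all miRNAs. The 2 called higher against the co-treatment controls were miR-127-3p (5.87 ± 1.39 CPM against 2.52 ± 0.730 CPM, SD, n = 3 each) and miR-432-5p. Between the ATRA-only groups, 0 of 38 members were called lower in the pre-treatment controls and 2 higher (5.67% and 9.22% of all miRNAs), with a median of −0.47. A list of 44 names of the region written from general knowledge gave 18 of 28 tested members lower, 2 higher and a median of −1.09 against the co-treatment controls, and between the ATRA-only groups 1 of 29 lower, 2 higher and a median of −0.76.

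Further kept falls included miR-877-5p, miR-145-5p and miR-346. hsa-miR-877-5p, a mirtron spliced from an intron of ABCF1 (chromosome 6, 30552109 to 30552194), was at 164, 178 and 137 CPM after pre-treatment, 490.1, 274 and 452 CPM in the co-treatment controls, and 521 and 544 CPM in the pre-treatment controls (log2 fold change −1.34 ± 0.25 against the co-treatment controls, exact test FDR = 8.72e-06). hsa-miR-145-5p, known from smooth muscle, was at 376, 413 and 322 CPM after pre-treatment and at 867, 673 and 975 CPM in the co-treatment controls (−1.17 ± 0.21, FDR = 1.11e-05). hsa-miR-346, from an intron of the glutamate receptor gene GRID1 (chromosome 10, 88024451 to 88024545), was at 3.24, 4.06 and 5.54 CPM after pre-treatment and at 24.3, 12.2 and 11.4 CPM in the co-treatment controls (−1.88 ± 0.35, FDR = 8.96e-06). In each of them the pre-treated libraries lay below all 5 controls.

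For a set of falls, co-treatment control 2 stood nearer to the pre-treated libraries than the other co-treatment controls did. hsa-miR-129-1-3p was at 8.51, 9.60 and 7.92 CPM after pre-treatment and at 58.9, 22.9 and 44.4 CPM in the co-treatment controls (log2 fold change −2.26 ± 0.32, exact test FDR = 3.40e-09). hsa-miR-664a-3p, whose hairpin overlaps a small nucleolar RNA, was at 25.5, 28.5 and 23.8 CPM and at 156, 53.3 and 129 CPM (−2.11 ± 0.34, FDR = 7.30e-08). hsa-miR-1227-3p, from an intron of PLEKHJ1, was at 2.28, 3.11 and 4.09 CPM and at 25.8, 6.34 and 19.6 CPM (−2.43 ± 0.46, FDR = 6.42e-06). All 3 remained called when any 1 of the 6 libraries was left out. hsa-miR-30c-5p, which has 2 hairpins, was at 1.80, 1.22 and 1.72 CPM after pre-treatment and at 12.9, 5.51 and 15.5 CPM in the co-treatment controls (−2.82 ± 0.42, FDR = 2.07e-08).

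The 2 miR-129 forms carry the only seed shared by kept miRNAs among the 36 of 41 with a sequence, and they match at 21 of 22 positions, so reads with an error could pass from one to the other. hsa-miR-129-2-3p, from chromosome 11, was at 14.5, 14.3 and 9.77 CPM after pre-treatment and at 28.3, 26.8 and 18.0 CPM in the co-treatment controls (log2 fold change −0.91 ± 0.25, exact test FDR = 0.00550). The remaining kept falls were miR-193b-3p, miR-5010-3p, miR-629-3p, let-7b-3p and let-7d-3p, with log2 fold changes from −0.87 for both let-7 passenger arms to −1.18 for miR-193b-3p.

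The study named 7 miRNAs, all higher after pre-treatment, as hubs of a network of miRNAs and correlated target transcripts. They were chosen on the pre-treatment libraries, so their direction against the pre-treatment controls is not independent evidence. Against the co-treatment controls, 3 of the 7 were called higher (miR-34c-5p, miR-138-5p and miR-1287-5p), and the other 4 were not called. Of all 46 tested rises 37.0% were called higher there, and of all tested miRNAs 13.9%.

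hsa-miR-195-5p, a member of the miR-15/16 seed family that restrains the cell cycle, was at 1874, 1891 and 1689.5 CPM after pre-treatment, 1562, 1944 and 1445 CPM in the co-treatment controls, and 942 and 682 CPM in the pre-treatment controls. The pre-treated and co-treatment libraries overlapped, at a log2 fold change of 0.15 ± 0.18 (exact test FDR = 0.645), where it was 1.27 ± 0.26 against the pre-treatment controls (FDR = 0.00825). Its cluster partner hsa-miR-497-5p was at 1488, 1509 and 1663 CPM after pre-treatment and at 1462, 1391 and 2143 CPM in the co-treatment controls (−0.09 ± 0.21, FDR = 0.824), against 779 and 755 CPM in the pre-treatment controls. hsa-miR-16-5p, which has 2 hairpins, was at 660.2, 692 and 701 CPM and at 504, 619 and 633 CPM (0.23 ± 0.19, FDR = 0.427), without overlap but without a call.

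hsa-miR-96-5p, a miRNA of sensory cells, was at 8.87, 8.52 and 7.26 CPM after pre-treatment, 9.59, 10.1 and 6.01 CPM in the co-treatment controls, and 3.64 and 3.45 CPM in the pre-treatment controls. Its log2 fold change went from 1.31 ± 0.35 (exact test FDR = 0.0347) against the pre-treatment controls to −0.05 ± 0.27 (FDR = 0.958). Of the 6 members of the miR-15/16 seed family, 4 were called higher against the pre-treatment controls (5.41% of all miRNAs). Against the co-treatment controls 0 were called higher and 2 lower (13.9% and 17.7% of all miRNAs), with a median of −0.23. The 2 were miR-15b-5p (−0.69) and miR-424-5p (−0.94). Between the ATRA-only groups the family's median was −1.20, with 2 members called lower in the pre-treatment controls (5.67% of all miRNAs).

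**Figure D4:**
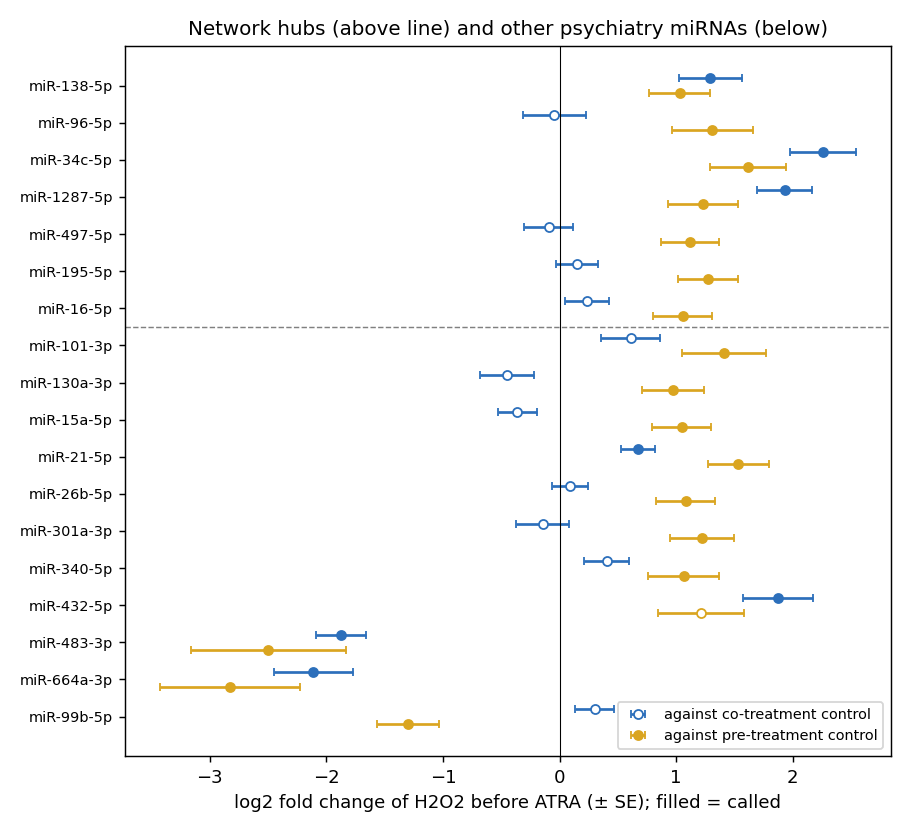
Log2 fold change ± SE of pre-treated cells against the co-treatment controls (blue, n = 3 against 3) and the pre-treatment controls (yellow, n = 3 against 2) for the 7 network hubs and the 11 further miRNAs linked to psychiatric disorders. Filled points passed the exact test's thresholds. The hubs miR-138-5p, miR-34c-5p and miR-1287-5p stay on the right against both sets, whereas the other 4 lie between −0.09 and 0.23 against the co-treatment controls.

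The study also singled out 12 miRNAs with prior links to psychiatric disorders that it found changed in both of its experiments, again on these libraries. Of the 12, 3 were called higher against the co-treatment controls (miR-21-5p, miR-34c-5p and miR-432-5p) and 2 lower (miR-483-3p and miR-664a-3p). Among all miRNAs tested, 13.9% were called higher and 17.7% lower. hsa-miR-432-5p was at 7.43, 8.38 and 7.52 CPM after pre-treatment, 1.95, 2.39 and 2.00 CPM in the co-treatment controls, and 4.40 and 2.83 CPM in the pre-treatment controls. It was called against the co-treatment controls (log2 fold change 1.87 ± 0.30, exact test FDR = 5.46e-07) though not against the pre-treatment controls (1.21 ± 0.37, FDR = 0.0653), and it was higher in the pre-treated libraries than in every control.

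Of the 7 not called, miR-101-3p came nearest, with 282, 272 and 391 CPM after pre-treatment against 170.3, 173 and 280.1 CPM in the co-treatment controls (0.61 ± 0.25, exact test FDR = 0.0717), and it was called without co-treatment control 3 (0.87) and with the GC offset (1.03). hsa-miR-99b-5p was called lower against the pre-treatment controls (−1.30 ± 0.27, FDR = 0.00491), which held 59563 and 38606 CPM. In the co-treatment controls it was at 13227, 17869 and 14112 CPM, which overlapped the 20467, 18941 and 16051 CPM of the pre-treated libraries (0.30 ± 0.17, FDR = 0.286). The log2 fold changes of the other 5 lay between −0.45 for miR-130a-3p and 0.40 for miR-340-5p, and of these miR-130a-3p was called lower without co-treatment control 2 (−0.64) and miR-340-5p was called higher with the GC offset (0.88). A further miRNA of the study's account, miR-181b-5p, was higher against the co-treatment controls (257 ± 37.4 against 144 ± 55.0 CPM, SD, n = 3 each, log2 fold change 0.84 ± 0.27, FDR = 0.0128), but it was not called against the pre-treatment controls (FDR = 0.0504). The call was lost without pre-treated library 1 or 3 or co-treatment control 1 or 3 (0.62 to 0.85).

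hsa-miR-223-3p and hsa-miR-205-5p, the myeloid and the epithelial miRNA with the largest falls against the pre-treatment controls (log2 fold change −4.87 ± 1.43 and −4.54 ± 1.15), did not keep them. hsa-miR-223-3p was at 1.20, 1.08 and 1.45 CPM after pre-treatment and at 1.05, 0.479 and 0.375 CPM in the co-treatment controls, whereas pre-treatment control 1 held 82.0 CPM and control 2 held 0.628 CPM. hsa-miR-205-5p was at 2.76, 4.33 and 1.98 CPM and at 1.498, 2.39 and 1.501 CPM, whereas pre-treatment control 1 held 153 CPM and control 2 held 5.02 CPM. Their log2 fold changes against the co-treatment controls were 1.01 ± 0.57 (exact test FDR = 0.177) and 0.74 ± 0.42 (FDR = 0.212). In pre-treatment control 2, miR-223-3p was lower than in each pre-treated library and miR-205-5p was higher than in each of them.

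Called in the opposite direction against the co-treatment controls were 7 miRNAs. hsa-miR-760 was at 129, 110.5 and 81.4 CPM after pre-treatment, 71.6, 74.7 and 58.7 CPM in the co-treatment controls, and 881 and 397 CPM in the pre-treatment controls. The pre-treated libraries thus lay between the control groups, below one (log2 fold change −2.45 ± 0.38, exact test FDR = 9.92e-06) and above the other (0.66 ± 0.22, FDR = 0.0261), and the control groups differed by 3.13. The same order held for miR-2110, miR-3131, miR-1976, miR-6847-5p and miR-6807-5p, where the ATRA-only groups differed by 2.38 to 2.90 and the rise against the co-treatment controls was 0.78 to 1.42. hsa-miR-548e-5p had the reverse order, with 18.6, 22.8 and 24.2 CPM after pre-treatment, 34.2, 26.0 and 50.0 CPM in the co-treatment controls, and 9.87 and 9.73 CPM in the pre-treatment controls. Of these 7, miR-3131, miR-1976, miR-6847-5p and miR-6807-5p were at 1.98 to 5.46 CPM on average after pre-treatment. None of the 7 was called in the opposite direction when pre-treated library 2 was left out. This count was the least stable: it was 16 without co-treatment control 2, 2 or fewer without any other of the 6 libraries, and 11 and 64 without pre-treatment control 1 or 2.

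**Figure D5:**
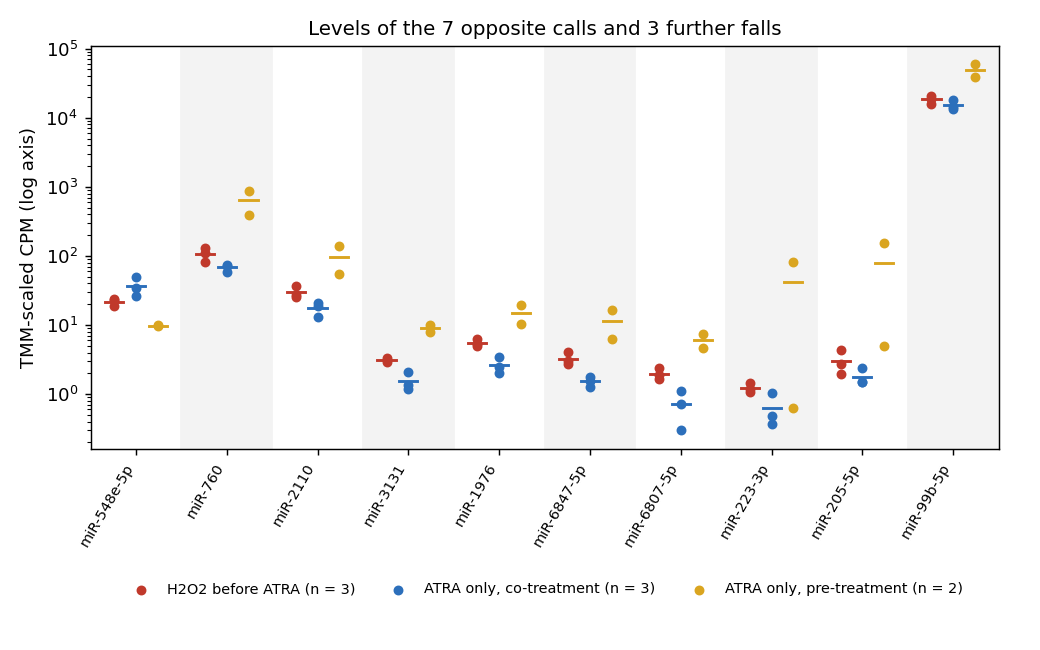
TMM-scaled CPM on a log axis for the 7 miRNAs called in opposite directions against the 2 sets of controls, and for miR-223-3p, miR-205-5p and miR-99b-5p. Points are libraries and bars are group means. For miR-760, miR-2110, miR-3131, miR-1976, miR-6847-5p and miR-6807-5p the pre-treated points lie between the co-treatment controls below and the pre-treatment controls above.

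The fates of the calls went with the size of the difference between the ATRA-only groups, which is fixed in part by arithmetic since the 3 comparisons are made from the same 3 group means. The median log2 fold change of the pre-treatment against the co-treatment controls was 0.42 for the 24 kept falls, 1.39 for the 20 falls of the same direction without a call, 1.99 for the 19 of opposite direction without a call and 2.59 for the 6 called higher. For the rises it was −0.61 for the 17 kept, −1.05 for the 17 of the same direction without a call and −1.51 for the 11 of opposite direction without a call.

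Large changes against the co-treatment controls were also found outside the calls of the pre-treatment comparison. hsa-miR-582-5p had the largest fall of those above 10 CPM, at 19.3, 21.0 and 13.6 CPM after pre-treatment and 118, 45.7 and 192 CPM in the co-treatment controls (log2 fold change −2.72 ± 0.42, exact test FDR = 1.68e-08), and its pre-treatment controls were at 12.3 and 129 CPM. hsa-miR-876-5p was at 14.5, 8.92 and 6.73 CPM and at 44.6, 38.8 and 41.9 CPM (−2.05 ± 0.27, FDR = 2.03e-10), but its pre-treatment controls, at 13.5 and 12.4 CPM, stood with the pre-treated libraries. hsa-miR-671-5p, which can cleave the circular RNA CDR1as, was at 844, 737 and 661 CPM after pre-treatment and at 157, 297 and 109 CPM in the co-treatment controls (2.00 ± 0.31, FDR = 5.52e-08), with 549.7 and 552 CPM in the pre-treatment controls. For the last 2, the exact test also called the ATRA-only groups different (−1.82, FDR = 0.0115, and 1.45, FDR = 0.0358). The quasi-likelihood test called neither (FDR = 0.0546 and 0.0792). The others among the 10 largest rises and falls that were not kept were miR-130a-5p (−2.30), miR-185-3p (1.72), miR-296-3p (1.70), miR-3615 (1.69), miR-128-1-5p (1.66) and miR-3928-3p (1.59), and of these only miR-130a-5p lay beyond all 5 controls.

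Of 13 listed main arms of the miR-17-92 cluster and its paralogs, which MYC proteins induce and which drive proliferation, 7 were called lower against the co-treatment controls and 0 higher (17.7% and 13.9% of all miRNAs), with a median log2 fold change of −1.03. hsa-miR-17-5p was at 1146, 1157 and 1490.5 CPM after pre-treatment and at 4666, 2277 and 5966 CPM in the co-treatment controls (−1.76 ± 0.30, exact test FDR = 1.26e-06). Its pre-treatment controls were at 649.7 and 1078 CPM, below every pre-treated library. These 13 had a median of 0.47 with 0 calls against the pre-treatment controls. Between the ATRA-only groups, 7 were called lower in the pre-treatment controls (5.67% of all miRNAs), with a median of −1.30. None of the 7 falls of pre-treated cells was therefore a kept change. Of the other arms, miR-18a-3p (−1.68), miR-18b-3p (−2.17), miR-25-5p (−1.36) and miR-106b-3p (−1.21) were called lower against the pre-treatment controls, and none of these 4 was called against the co-treatment controls.

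In the miR-34 family, 2 of 5 tested members were called higher (13.9% of all miRNAs), miR-34c-5p and miR-34a-5p, with a median log2 fold change of 1.18. hsa-miR-34a-5p, the abundant p53-induced member, was at 13682, 11867 and 14595 CPM after pre-treatment, 7739, 8556 and 7551 CPM in the co-treatment controls, and 6255 and 9164 CPM in the pre-treatment controls. It lay above all 5 controls and was called against the co-treatment controls (0.76 ± 0.16, exact test FDR = 0.00161) but not against the pre-treatment controls (0.88 ± 0.30, FDR = 0.0965). The low-level miR-34b-3p (1.18 ± 0.49, FDR = 0.0705) and miR-34b-5p (1.41 ± 0.59, FDR = 0.0556) were not called, although miR-34b-3p was called higher against the pre-treatment controls (2.59 ± 1.04) and lay above all 5 controls, and miR-34a-3p had a value of −0.46 ± 0.27 (FDR = 0.225).

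Of 10 tested miRNAs linked to oxidative or hypoxic stress, 4 were called higher and 0 lower (13.9% and 17.7% of all miRNAs), with a median log2 fold change of 0.26. They were miR-21-5p, miR-335-5p, miR-451a and miR-146a-5p, the last a brake on NF-κB signalling (19.5 ± 3.43 against 9.57 ± 2.52 CPM, SD, n = 3 each, exact test FDR = 0.00209). hsa-miR-210-3p, the classical hypoxia miRNA, was called lower against the pre-treatment controls (−1.75) and had −0.59 against the co-treatment controls, just inside the size threshold of 0.6 (FDR = 0.0276). The 9 let-7 and miR-98 guide (5p) arms, which mark differentiated cells, gave 0 calls in either direction against either set of controls, with medians of −0.05 and −0.29, whereas the passenger arms let-7b-3p and let-7d-3p were among the kept falls.

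Of 11 tested neuronal miRNAs, 2 were called higher (miR-138-5p and miR-9-3p) and 3 lower (miR-218-5p, miR-338-3p and miR-129-5p), beside 13.9% and 17.7% of all miRNAs, with a median log2 fold change of 0.07, and of these miR-138-5p alone was also called against the pre-treatment controls. Of 5 tested white blood cell miRNAs 1 was higher (miR-146a-5p), and of 6 epithelial miRNAs 0 were called (medians 0.04 and 0.08). The summed epithelial level was 43.7 to 51.4 CPM after pre-treatment and 47.9 to 49.0 CPM in the co-treatment controls, where the pre-treatment controls ranged from 46.3 to 199 CPM. Of 7 miRNAs that mark a second, mesenchymal state of neuroblastoma, 2 were higher and 2 lower. The largest was miR-221-3p, at 11.6, 9.60 and 4.62 CPM after pre-treatment and 1.05, 0.359 and 0.5005 CPM (7, 3 and 4 counts) in the co-treatment controls (log2 fold change 3.78 ± 0.49, exact test FDR = 1.05e-10), but its pre-treatment controls, at 7.90 and 2.67 CPM, overlapped the pre-treated libraries. Of 7 tested miRNA names that overlap small nucleolar RNAs, miR-1248 was called higher and miR-664a-3p lower.

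The 18 calls of the pre-treatment comparison that were not tested against the co-treatment controls were 1 rise, miR-4638-3p, and 17 falls: miR-320b, miR-383-5p, miR-3173-3p, miR-3917, miR-3944-3p, miR-4489, miR-4667-3p, miR-4745-5p, miR-6738-3p, miR-6740-5p, miR-6751-5p, miR-6761-3p, miR-6777-5p, miR-6831-5p, miR-6884-5p, miR-6894-5p and miR-7851-3p. They missed the minimum of 0.864 CPM in at least 3 of the 6 libraries, and the highest value of each over these libraries was 0.406 to 2.13 CPM. The means of 12 of the 18 differed in the direction found against the pre-treatment controls. Without a count filter they were tested too, and of all 133 calls 90 then had the same direction and 37 were also called.

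Both arms of a hairpin were tested for 199 hairpins, and for 27 of them both arms were called against the co-treatment controls. The arms moved in the same direction in 21 of the 27, among them miR-21, miR-483 and miR-675. They moved in opposite directions for miR-139, miR-193b, miR-330, miR-491, miR-744 and miR-2277, of which miR-193b holds the kept fall of miR-193b-3p. Of the 41 kept miRNAs, 32 had an annotated hairpin position, and 19 of these lay in an intron and 11 in an exon of an annotated gene.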

How the data were processed

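Small RNA was sequenced with QIAseq miRNA libraries on a NextSeq 500. The deposited values are whole-number read counts per mature miRNA, which the authors made with FastQC 0.11.8, cutadapt 2.10, Bowtie2 2.4.1 (hg19) and HTSeq 0.7.2 before testing in edgeR 3.6.1. Their tables of fold changes and p-values were not used. Whether molecular identifiers were collapsed, and the miRBase release, are not given in the sources used here. The floor of 3 counts covers counting error only, and SEs cover the spread between libraries.

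Groups were taken from the sample labels, and the 2 count tables were joined by miRNA name. Following the study's method, TMM scaling and the edgeR exact test (edgeR 4.0.16, limma 3.58.1, R 4.3.3) were used, with a Benjamini-Hochberg FDR under 0.05 and an absolute log2 fold change above 0.6 as the call. SEs came from the quasi-likelihood fit. The filter on low values asked for at least 3 libraries (2 where a pre-treatment control took part) above the CPM to which 5 counts correspond at the lowest depth. DESeq2 1.42.0, other scalings, filters and thresholds, a GC offset (679 miRNAs, 89%), a replicate block and leaving out each library were alternatives. The scripts were tested on simulated data. Members and lists were chosen with earlier results of these data known.

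Named miRNAs were the 10 largest rises and 10 largest falls against the co-treatment controls with a mean of at least 10 CPM, the 8 largest kept ones each way, the 5 largest called in the opposite direction, the study's hub and psychiatric lists and the miRNAs its text discusses. Others came from the lists below or, as with miR-145-5p, miR-877-5p, miR-30c-5p, miR-1248 and the DLK1-DIO3 and miR-129 members, were chosen after their values were seen. The lists were neuronal, miR-34, stress-linked, miR-15/16, let-7, miR-17-92, DLK1-DIO3, red cell, white cell, epithelial, liver and muscle, second-state and small nucleolar RNA names. Hairpin positions came from a GRCh37 annotation.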

Additional observations from a re-analysis of the deposited data

How the results depend on the processing

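The 241 calls against the co-treatment controls became 125 in one quasi-likelihood fit of all 11 libraries and 30 with all 5 controls as one group, and they reached 324 without co-treatment control 2. With library size in place of TMM, 36.0% of the calls were higher, against 44.0%. Against the pre-treatment controls, the 133 calls became 17 by the quasi-likelihood test, 61 without a count filter, and, within the quasi-likelihood test, 15 with a replicate block, 2 with the GC offset and 12 for the same miRNAs without it. The block and GC settings are quasi-likelihood fits throughout. The calls became 9 to 449 without single libraries, the lowest without pre-treated library 2. The 78 with the same direction accordingly became 13, 46, 11, 1 and 10, and 6 to 203, and the 41 kept became 8, 22, 8, 0 and 6, and 4 to 109. The 7 in the opposite direction became 1 by the quasi-likelihood test, 0 without a filter, 4 at a log2 threshold of 1, 1 in the fit of 11 libraries, 1 with the block, 0 with the GC offset and 1 without it, and 0 to 64 without single libraries. The 126 calls between the ATRA-only groups became 0 by the quasi-likelihood test, 78 without a filter, 231 in the fit of 11 libraries, 2 with the GC offset and 3 without it, and 1 to 315 without single libraries. The 76 calls beyond all 5 controls were 50 at a threshold of 1 and 60 to 151 without single libraries. With the 133 calls held fixed, an alternative added after seeing the data, the 78 of 115 with the same direction became 123 of 127 with all 5 controls, a group that holds the pre-treatment controls themselves.

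With those calls held fixed, the 41 kept became 22 with all 5 controls, but 39 by the quasi-likelihood test, 37 without a filter, 41 with the block, and 42 of 99 with the GC offset against 34 of 99 without it. Of the 41, 21 were called the same way in every one of 17 settings in which they were tested. All 40 that were tested against each pre-treatment control alone had the same sign, and miR-543 was not tested there. The 41 were picked by calls against these same 2 controls, which favours a shared sign, so this is not further evidence. The smallest of these log2 fold changes was −0.32, for miR-382-5p against pre-treatment control 1. With all 5 controls as one group, the log2 fold changes of miR-3615 (−0.058), miR-6807-5p (−0.40), miR-6847-5p (−0.60), miR-1976 (−0.35), miR-3131 (−0.41) and miR-2110 (−0.61) turned negative. The uncalled values of miR-223-3p (−3.58), miR-205-5p (−3.27) and miR-99b-5p (−0.54) turned there too. Over 766 values of named miRNAs under alternatives, 675 kept sign and call, 64 lost the call, 5 gained it and 22 changed sign, of which 16 were uncalled values of 8 miRNAs. Same-numbered libraries of the groups compared correlated in their deviations at 0.0869, −0.00889 and 0.155, so the numbers were not taken to pair the samples, and the replicate block gave 222 calls against 215 without it, both by the quasi-likelihood test. The causes of these changes were not tested. Counts of 3 or fewer per library (0.356 to 0.518 CPM) limit what can be said of miR-543, miR-221-3p and miR-124-3p.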
